A study of Oreochromis niloticus with 16 samples.

Results

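The miRNA family miR-196 of Nile tilapia (Oreochromis niloticus) was followed through 16 small RNA libraries. Its members are all entries whose mature name is miR-196 with any letter, on either arm and at any locus. There are 6 such entries of 734 (an entry is 1 arm at 1 locus), which carry 5 mature names of 577 and belong to 3 hairpins, mir-196a-1, mir-196a-2 and mir-196b. The 5p arm of both mir-196a hairpins has a single name, miR-196a-5p, while their 3p arms are named apart as miR-196a-3p (mir-196a-1) and miR-196a-3p-2 (mir-196a-2). The mir-196b hairpin gives miR-196b-5p and miR-196b-3p.

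All libraries came from the Chitralada strain with no treatment named. There were 5 whole-animal stages: embryos at 2 and 3 days post-fertilization (dpf), both labelled gastrula segmentation, pharyngula embryos at 4 dpf, hatching embryos at 5 dpf and late larvae at 10 dpf. The 11 adult libraries held female and male brain, red muscle and white muscle, 1 ovary, 1 testis, 1 heart of a female, and 1 liver and 1 eye from fish of mixed sex. The files give no number of animals per library. Sex was taken from the letter that opens each sample title and from the tissue list of the study, and the female red and white muscle libraries carry the same fish number in their titles, as do the female brain and the ovary.

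Genes of miR-196 are known in vertebrates as residents of the Hox clusters, the arrays of homeobox genes that set position along the head-to-tail axis. They lie among the posterior Hox genes, and in mouse miR-196 cleaves the mRNA of Hoxb8. A hairpin is cut into a duplex of a 5p and a 3p arm, of which usually 1 is loaded into the silencing complex and kept. The members known for silencing Hox mRNAs are the 5p arms, and the 3p arms are usually the less abundant strand. The files hold names and counts only. The position of the 3 hairpins in the tilapia genome and their sequences were not used here, so the assignment to Hox clusters rests on their names.

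Reads that match several loci were divided over them by the authors, and levels are given as counts per 1000000 of these divided totals (CPM), which ran from 833147 to 11517367 reads per library. A library with no read of a name could hold up to 3 counts of it, that is 0.26 CPM in male red muscle and 3.6 CPM in the 10 dpf larvae. Intervals on single libraries are exact Poisson intervals at 95% and cover counting error only. The neuronal miR-124 and miR-9 summed to 58700 and 40880 CPM in the brains and to at most 23.8 CPM in the muscles, and the hepatic miR-122 with miR-192 to 490800 CPM in liver. The neuronal list summed to 17650 CPM in eye. A gonad list of 1 name was at 775.1 CPM in ovary and 11960 CPM in testis, and at most at 25.43 CPM elsewhere. An eye list summed to 734400 CPM in eye and to at most 14210 CPM, in ovary, among the other adult libraries. The skeletal muscle list (miR-1, miR-133a, miR-206) summed to 26980 and 28220 CPM in female and in male red muscle, against 277300 and 305900 CPM in female and in male white muscle. The red muscle libraries thus lay below the 33750 CPM of this list in heart. The heart list (miR-499, miR-1) summed to 73310 CPM in heart, below the 129100 and 172400 CPM of female and of male white muscle, so these lists did not set heart and skeletal muscle apart. The 2 dpf library stood apart, because miR-10b-5p alone took 58.6% of its divided reads and its TMM factor was 0.274. TMM is the scaling of edgeR, which adjusts library totals so that the bulk of names is level between libraries.

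The family was a minor part of the small RNA pool, with 9233 divided reads or 0.0154% of the reads of all libraries together. The 5p arms held 88.2% of them and the 3p arms 11.8%. miR-196a-5p was the leading member with 6787 reads (73.5% of the family), followed by miR-196b-5p with 1352 (14.6%), miR-196a-3p-2 with 577 (6.25%), miR-196b-3p with 406 (4.4%) and miR-196a-3p with 111 (1.2%). Of the reads of miR-196a-5p, 6773 (99.79%) matched both mir-196a loci, 12 matched mir-196a-2 alone and 2 matched mir-196a-1 alone. The reads of the 2 loci could therefore be told apart on the 3p side only. miR-196b-5p shared no read with another locus.

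miR-196a-5p, one of the arms known for binding Hox mRNAs, was detected in 14 of the 16 libraries. Over the stages its level was 10.06, 217.3, 39.43, 314.6 and 100.8 CPM at 2, 3, 4, 5 and 10 dpf, high at 3 and 5 dpf and low between them. In female and male brain it was 0.787 and 0.295 CPM, from 4 and 2 reads. These are the lowest levels among the libraries in which it was seen. In female and male red muscle it was 293.8 and 135.4 CPM, and in female and in male white muscle 27.39 and 10.5 CPM. The ovary had 55.21 CPM, the testis 107.8 and the liver 2.963 CPM (4 reads). The heart and the eye had 0 reads, which allows up to 2.34 CPM in heart and 1.5 CPM in eye. In order of level, 5 dpf embryos and female red muscle led and their intervals overlapped, followed by 3 dpf and then male red muscle, each clear of its neighbours. The order depended on the scaling. After TMM scaling female and male red muscle led with 402.0 and 212.0 CPM, followed by 3 dpf (132.7), testis (115.7) and 5 dpf (109.7), and 10 of 119 pairs of libraries changed their order. Intervals of neighbours in unscaled CPM also overlapped between testis and 10 dpf, between ovary and 4 dpf, between 4 dpf and female white muscle, between male white muscle and 2 dpf, and all the way down from 2 dpf through liver, both brains, eye and heart. Among the names detected in a library miR-196a-5p ranked highest in female and in male red muscle, at places 82 and 89.

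**Figure D1:**
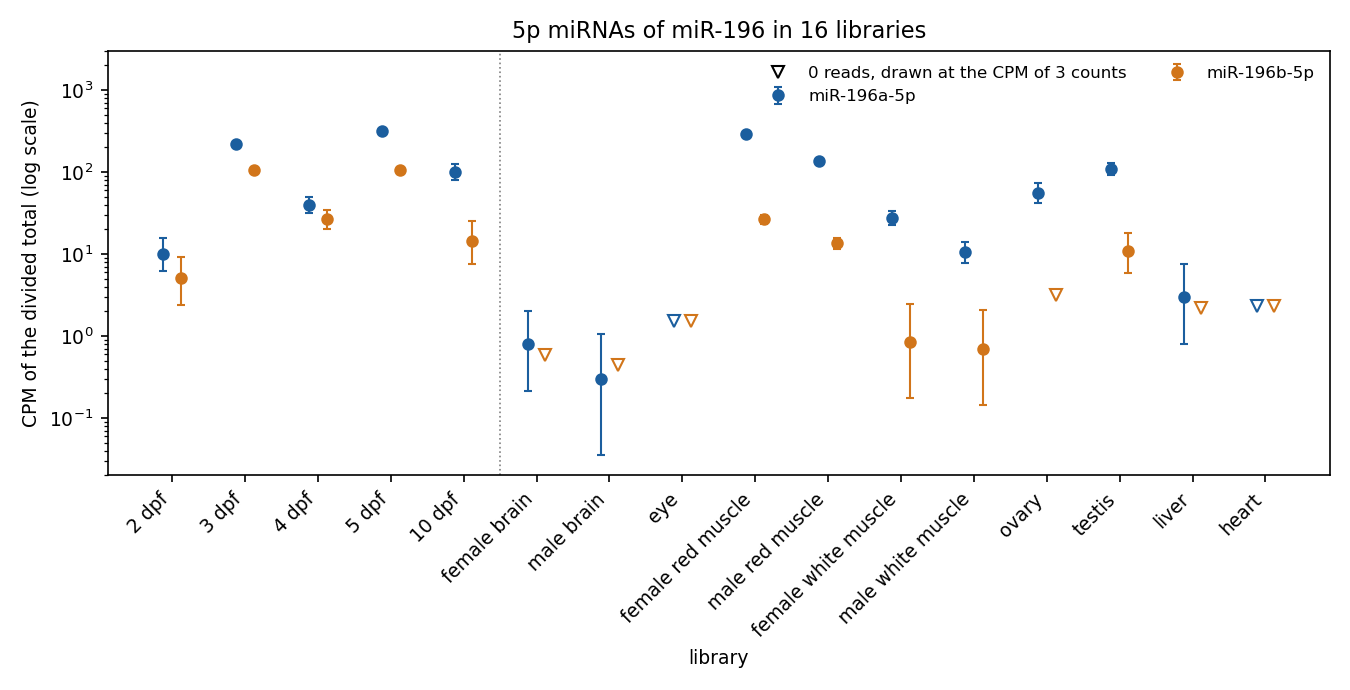
Level of miR-196a-5p and miR-196b-5p in each of the 16 libraries, in CPM of the divided total on a log axis, with exact Poisson 95% intervals as bars and open triangles at the CPM of 3 counts where no read was found. Stages stand left of the dotted line and adult tissues right of it. Red muscle (293.8 and 135.4 CPM of miR-196a-5p) stands far above white muscle (27.39 and 10.5 CPM). Both brains and the liver have the lowest miR-196a-5p levels with reads, and eye and heart have no read of either name.

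miR-196b-5p, the corresponding arm of the third hairpin, was detected in 10 libraries. Over the same stages it reached 5.03, 104.9, 26.44, 104.6 and 14.4 CPM. In CPM the values at 3 and 5 dpf could not be told apart by counting error, but after TMM scaling they were 64.06 and 36.47. The value at 4 dpf was below both under either scaling (13.04 after TMM scaling), as for miR-196a-5p. In adults it was at 26.48 and 13.46 CPM in female and in male red muscle, 0.847 and 0.70 CPM in female and in male white muscle (3 reads each), and 10.7 CPM in testis. It had 0 reads in both brains, eye, ovary, liver and heart.

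The 3p names were scarcer in total and did not follow the 5p names through all the stages. miR-196a-3p-2 was at 21.12, 54.6, 16.24, 13.01 and 4.80 CPM at 2, 3, 4, 5 and 10 dpf. In CPM it rose to 3 dpf and fell to 4 dpf as miR-196a-5p did, but it did not rise again at 5 dpf. Its highest CPM was thus at 3 dpf, whereas after TMM scaling it was at 2 dpf (76.95, against 33.35 at 3 dpf). miR-196b-3p was at 3.52, 13.43, 32.48, 24.93 and 32.41 CPM over the same stages, and so had no dip at 4 dpf. miR-196a-3p stayed between 0 and 2.78 CPM in the stages. In adults miR-196a-3p-2 was at 7.66 and 10.68 CPM in female and in male red muscle, and at 0.282 and 0 CPM in female and in male white muscle. The other adult libraries with reads of it were the testis with 3.82 CPM and the female brain with a single read. miR-196b-3p was at 3.48 and 9.12 CPM in female and in male red muscle, 0.847 and 0.467 CPM in female and in male white muscle and 6.12 CPM in testis. miR-196a-3p was at 4.88 and 3.39 CPM in female and in male red muscle, 0.565 and 0 CPM in female and in male white muscle and 5.35 CPM in testis. All 3 names had 0 reads in male brain, eye, ovary, liver and heart.

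**Figure D2:**
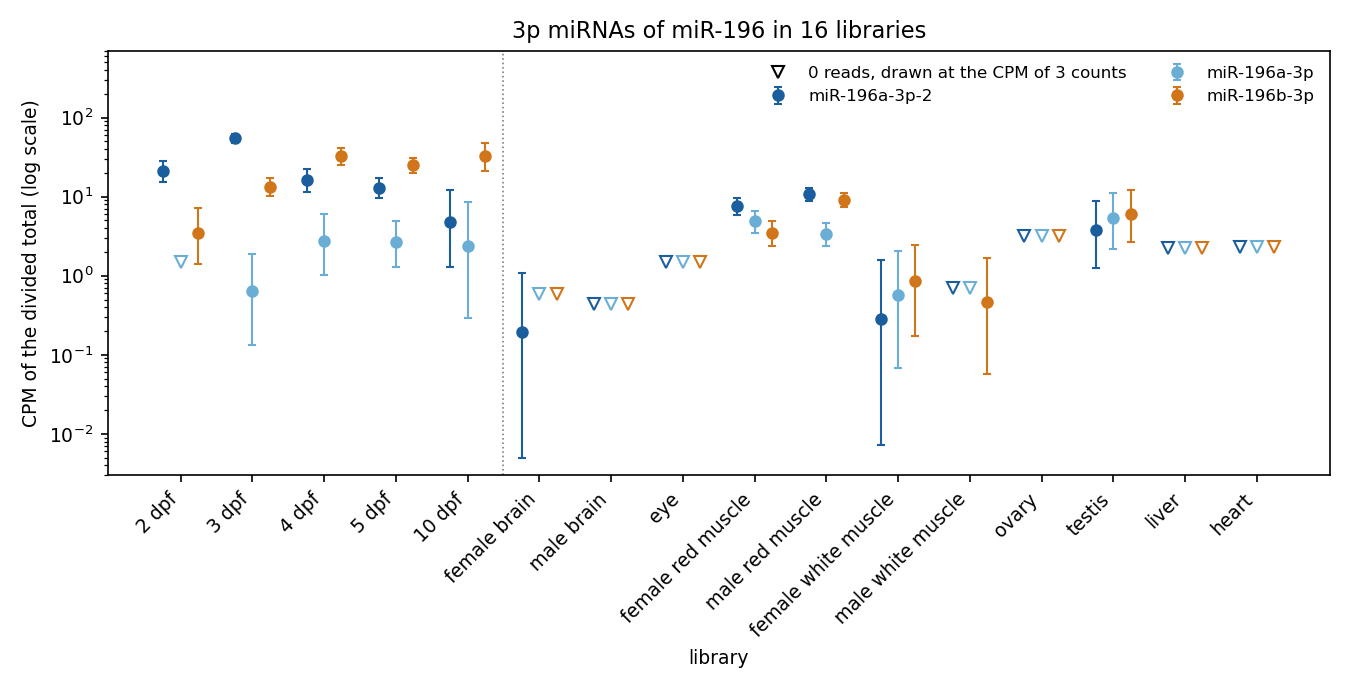
Level of the 3p names miR-196a-3p-2, miR-196a-3p and miR-196b-3p in each library, in CPM on a log axis with exact Poisson 95% intervals and open triangles at the CPM of 3 counts where no read was found. miR-196a-3p-2 is highest at 3 dpf (54.6 CPM) on this scale but at 2 dpf after TMM scaling, while miR-196b-3p stays between 13.43 and 32.48 CPM from 3 to 10 dpf.

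Brain was set against the mean of red and white muscle, as tissues of the head and of the body axis that each have a female and a male library. miR-196 was hardly detected in brain, and 4 of its 5 names were lower there. miR-196a-5p had 0.787 and 0.295 CPM in female and male brain, against 293.8 and 135.4 CPM in red and 27.39 and 10.5 CPM in white muscle. The lowest muscle library thus stood above both brains. Its log2 fold change was -7.12 (SE 0.96, edgeR adjusted p = 0.00014). For miR-196b-5p, with 0 reads in both brains and a mean of 10.37 ± 12.29 CPM in muscle (SD, n = 4), the level was at least 41.0-fold lower in brain, taking 3 counts over both brain libraries as the floor (edgeR adjusted p = 0.00138). By the same floor miR-196b-3p was at least 13.7-fold lower (edgeR adjusted p = 0.00562) and miR-196a-3p at least 8.72-fold lower (edgeR adjusted p = 0.0153). These 3 bounds are set against the mean unscaled CPM of the 4 muscle libraries and rest on red muscle. The p-values beside them test another quantity, brain against the mean of the log levels of red and white muscle after TMM scaling. In white muscle the means were 0.774 CPM of miR-196b-5p, 0.657 of miR-196b-3p and 0.282 of miR-196a-3p, against a floor of 0.253 CPM. Each white library had at most 3 reads of each name, and its counting intervals overlapped those of the brains. miR-196a-3p-2 had a log2 fold change of -3.79 (SE 1.65), which did not pass (edgeR adjusted p = 0.0671).

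Of the 362 names tested 31.2% were lower in brain. The median fitted log2 fold change was -6.93 over the 5 members and -0.01 over all names. With the 3 members that had 0 reads in both brains set to the bounds above, the median of the members was -3.79. That value mixes bounds in CPM with fitted log2 fold changes. All 5 members met the minimum of 10 reads in 2 libraries only through muscle, and all but miR-196a-5p only through red muscle, so the direction of their differences was in part set by that filter. Their count and median describe the members and are no support for a difference. The call on miR-196a-5p held without any 1 of the 6 libraries (edgeR adjusted p at most 0.00313). That on miR-196a-3p was lost without the female or the male brain (edgeR adjusted p = 0.101 and 0.114). Without female white muscle no white library had a read of miR-196a-3p, and the fit gave no usable estimate for it. In bulk tissue, fewer cells that hold a miRNA and less of it per cell cannot be told apart.

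**Figure D3:**
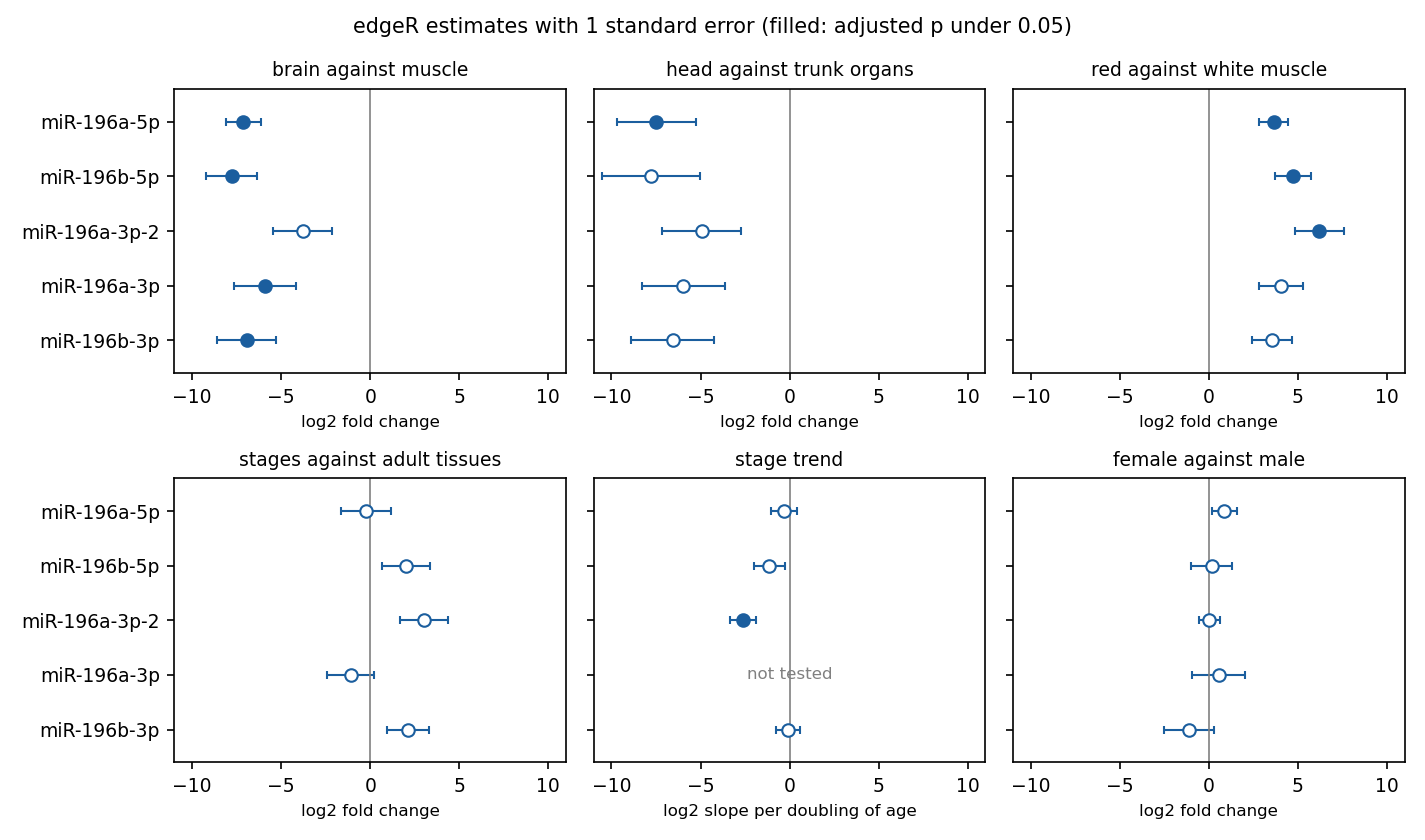
Log2 fold changes of the miR-196 names in 5 comparisons and the log2 slope over the stages, from edgeR. Bars are 1 approximate standard error to each side, the size of the estimate divided by the square root of its F statistic. Points are filled where the adjusted p was under 0.05. Positive values mean higher in the group named first, and estimates for names with 0 reads in brain or head depend on the prior count of the fit. The points lie far left of 0 for brain (miR-196a-5p -7.12) and right of 0 for red muscle (miR-196a-5p 3.63).

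The adult libraries were also split by anatomy, with brain and eye as head organs against red and white muscle, ovary, testis, liver and heart. miR-196a-5p averaged 0.361 ± 0.398 CPM in the head libraries (SD, n = 3) and 79.1 ± 100.1 CPM in the other 8 (SD), in which it ranged from 0 in heart to 293.8 in female red muscle. The groups overlapped, since liver and heart were as low as the head libraries within counting error. The log2 fold change was -7.49 (SE 2.22, edgeR adjusted p = 0.0281), against a median of -0.46 over all names. It was 1 of 5 names lower in the head organs, 1.33% of the 375 tested. It too met the read minimum through the other organs only. The call was lost without the female brain, the male brain or the eye (edgeR adjusted p = 0.119, 0.155 and 0.0846). The remaining members did not pass. With 0 reads in the 3 head libraries, miR-196b-5p was at least 30.1-fold, miR-196b-3p at least 11.6-fold and miR-196a-3p at least 8.19-fold lower there than the mean of the other organs, taking 3 counts over the group as the floor. Their medians over the other 8 libraries were lower than these means, at 0.774, 0.657 and 0.282 CPM. The edgeR adjusted p was 0.0716, 0.0716 and 0.0907. miR-196a-3p-2 had a log2 fold change of -4.94 (edgeR adjusted p = 0.119).

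Red and white muscle of fish are separate sheets of slow oxidative and fast glycolytic fibres. All 5 names had a higher mean level in red muscle, and 3 of them passed. Of these, miR-196a-5p had at least 10 reads in both red and both white libraries, whereas the other 4 names met the read minimum only through red muscle, which in part set their direction. miR-196a-5p averaged 214.6 ± 112.0 CPM in red and 18.94 ± 11.94 CPM in white muscle (SD, n = 2 each), with no overlap. Its log2 fold change was 3.63 (SE 0.80, edgeR adjusted p = 0.024). Within a sex the ratio of red to white was 10.7 in females and 12.9 in males. miR-196b-5p averaged 19.97 ± 9.21 CPM in red and 0.774 ± 0.104 CPM in white muscle, a log2 fold change of 4.72 (SE 0.98, edgeR adjusted p = 0.024). miR-196a-3p-2 had 66 and 123 reads in female and in male red muscle, against 1 and 0 in female and in male white muscle, and a log2 fold change of 6.20 (SE 1.38, edgeR adjusted p = 0.024). miR-196a-3p (4.05, SE 1.21) and miR-196b-3p (3.56, SE 1.12) did not pass (edgeR adjusted p = 0.0657 and 0.0793).

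The names that passed as higher in red muscle were 11 of 362 (3.04%), and the median log2 fold change over all names was 0.32. Because of the read minimum, the member count of 3 and the members' median of 4.05 are descriptions and are not read against these values. The calls rest on 2 libraries on each side. That on miR-196a-5p was lost without the female or male white library (edgeR adjusted p = 0.189 and 0.224) and without the female or male red library (0.0611 and 0.0891), while its log2 fold change stayed between 2.99 and 4.14. miR-196b-5p had 0.258 and 0.213 without the female and male white library, and miR-196a-3p-2 had 0.189 and 0.213. Without the female or the male red library, miR-196b-5p and miR-196a-3p-2 did not meet the read minimum and were not tested. With sex as a block miR-196a-3p-2 no longer passed (edgeR adjusted p = 0.0543). Other markers moved with this comparison. Those of blood cells (miR-451, miR-144) summed to 16960 and 3720 CPM in female and in male red muscle, against 1966 and 1595 CPM in white muscle. Of the epithelial list, 3 of 5 names were in the files and summed to 234.7 and 73.02 CPM in red muscle, against 2248 and 1980 CPM in white. Their part in the difference of miR-196, and that of the lower skeletal muscle list given above, was not tested.

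Between the sexes miR-196a-5p was higher in the female library in 3 of 3 tissues with both sexes, with 2.17 times the level in red muscle, 2.61 times in white muscle and 4 against 2 reads in brain. The brain ratio had a counting interval of 0.382 to 29.5. The female red and white muscle libraries carry the same fish number, so the 3 tissues may not be independent. With tissue as a block the log2 fold change of female over male was 0.86 (SE 0.71), and the difference did not pass (edgeR adjusted p = 0.991). No member passed. Of the 362 names 0.0% passed, 1 had an unadjusted p under 0.05, and the count was also 0 by DESeq2. The gonads went the other way, with 55.21 CPM of miR-196a-5p in ovary and 107.8 CPM in testis (ratio 0.512, 95% interval 0.365 to 0.709 from counting error alone). All 5 names were read in testis and miR-196a-5p alone in ovary. A name with 0 reads in ovary could be at up to 3.19 CPM there. The 3p names had 5 to 8 reads in testis, and their intervals reached below that limit. Their absence in ovary can therefore not be told from low depth. The interval of miR-196b-5p in testis (5.85 to 17.96 CPM) lay above it.

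Over the stages, the slope against the log2 of the day was tested on the 5 libraries. miR-196a-3p-2 fell with age, by 2.61 on the log2 scale per doubling of the day (SE 0.74, edgeR adjusted p = 0.00822), and it was 1 of 4 members tested. Names that passed with a falling slope made up 7.69% of 390. miR-196a-5p (slope -0.32, SE 0.75), miR-196b-5p (-1.15, SE 0.87) and miR-196b-3p (-0.09, SE 0.66) did not pass (edgeR adjusted p = 0.849, 0.427 and 0.967), and miR-196a-3p had too few reads for the test. The call on miR-196a-3p-2 was lost without the 2, 3 or 4 dpf library (edgeR adjusted p = 0.0843, 0.0961 and 0.0866). It was also lost when libraries were scaled by their totals alone (slope -1.34, edgeR adjusted p = 0.519), a setting in which 0 names passed and the median slope of all names was 1.27 instead of 0.13.

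From one stage to the next the 5p names moved up and down together, which a slope does not describe. There is 1 library per stage, so these ratios have no replicate check, and their intervals cover counting error only. From 2 to 3 dpf miR-196a-5p was 21.6 times and miR-196b-5p 20.9 times as high in CPM. However, 72.6% of 379 names were at least 3-fold higher in that step, among them 3 of the 4 miR-196 names with enough reads. The median ratio was 6.03. After TMM scaling the ratios of miR-196a-5p and miR-196b-5p were 3.62 and 3.50. For miR-196a-3p-2 (2.59) and miR-196b-3p (3.82) the direction turned with TMM scaling, to 0.433 and 0.64. At 4 dpf miR-196a-5p was at 0.181 (0.147 after TMM scaling), miR-196b-5p at 0.252 and miR-196a-3p-2 at 0.297 of the 3 dpf level. In this step 5.26% of 399 names were at least 3-fold lower, among them 3 of the 4 miR-196 names with enough reads. The interval of miR-196a-3p-2 (0.203 to 0.425) spanned the 3-fold limit, and its hairpin also gives miR-196a-5p. The fourth, miR-196b-3p, was 2.42 times as high (95% interval 1.69 to 3.46). At 5 dpf miR-196a-5p was at 7.98 (6.4 to 10.1) and miR-196b-5p at 3.96 (2.99 to 5.32) times the 4 dpf level. There 27.1% of 428 names were at least 3-fold higher in CPM, among them 2 of 5 miR-196 names. After TMM scaling miR-196a-5p was at 5.64 and miR-196b-5p at 2.8, the latter under the 3-fold limit. At 10 dpf miR-196a-5p and miR-196b-5p were at 0.321 and 0.138 of the 5 dpf level. There 14.6% of 419 names were at least 3-fold lower in CPM, among them 2 of 5 miR-196 names. The interval of miR-196a-5p (0.254 to 0.4) spanned the 3-fold limit. After TMM scaling its ratio was 0.337, just short of that limit, and that of miR-196b-5p was 0.145. In each step the direction counted was that of the 5p names, so these counts are descriptions only.

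The 5 stages were then set against the 11 adult libraries. No member passed, where 21.2% of the 449 names did. miR-196a-5p ranged from 10.06 to 314.6 CPM over the stages (median 100.8) and from 0 to 293.8 CPM over the adult libraries (median 10.5), with full overlap (log2 fold change -0.22, SE 1.41, edgeR adjusted p = 0.945). miR-196b-5p had a median of 26.44 CPM in the stages and 0 CPM in adults (2.02, SE 1.36, edgeR adjusted p = 0.301). The log2 fold changes of miR-196a-3p-2 (3.00), miR-196b-3p (2.15) and miR-196a-3p (-1.10) had an edgeR adjusted p of 0.118, 0.207 and 0.586. With library totals only, miR-196b-3p passed (3.48, edgeR adjusted p = 0.0368), in a setting where the median of all names was 1.23.

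The mixture of miR-196a and miR-196b was set out as well. miR-196b-5p made up 33.3, 32.5 and 40.1% of the 5p reads at 2, 3 and 4 dpf, 386 of 1547 reads at 5 dpf and 12.5% at 10 dpf, with a Wilson 95% interval of 7.3 to 20.6% at 10 dpf. It was 8.27% and 9.04% in female and in male red muscle, 3.0% and 6.25% in female and in male white muscle, 9.03% in testis, and 0 of 52 reads in ovary, which allows a share of up to 5.77%. The shares of the stages (12.5 to 40.1%) and of these adult libraries (0 to 9.04%) did not overlap, although the interval at 10 dpf reached into the adult range. The intervals of male white muscle (2.15 to 16.8%) and testis (5.46 to 14.6%) likewise reached into the range of the stages. Both brains, liver, heart and eye had too few 5p reads for a share. This split was seen in the values and was not tested.

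Arm usage also varied. For the 2 mir-196a hairpins together the 5p share of reads was 32.3% at 2 dpf (95% interval 22.0 to 44.6%). At 3, 4, 5 and 10 dpf it was 79.7, 67.5, 95.2 and 93.3%. The 2 dpf library was thus the only 1 with enough reads in which the 3p arm led, with 42 reads of miR-196a-3p-2 against 20 of miR-196a-5p. In adults the 5p share was 95.9% and 90.6% in female and in male red muscle, 97.0% in female white muscle, 100% in ovary and 92.2% in testis. For mir-196a-2 alone the share depends on how the common 5p reads are divided. At 2 dpf it was 19.2% with divided reads and 32.3% with every read counted at both loci, so the 3p arm led under either way of counting. At 4 dpf the values were 54.8% and 70.8%.

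For mir-196b, which shares no reads, the 5p share was 88.6% at 3 dpf, 44.9% at 4 dpf (36.5 to 53.6%) and 80.8% at 5 dpf. The low share at 4 dpf goes with both a lower 5p and a higher 3p level than at 3 dpf. The share was 88.4% (83.9 to 91.7%) for female red muscle and 59.6% (53.6 to 65.4%) for male red muscle. The female library had 228 reads of miR-196b-5p and 30 of miR-196b-3p, and the male library 155 and 105. miR-196b-5p was 1.97 times and miR-196b-3p 0.382 times as high in female as in male red muscle. With 1 red muscle library per sex, a difference between sexes and one between these 2 libraries cannot be told apart. At 2 and 10 dpf and in testis the 2 arms had fewer than 50 reads together, with 5p shares of 58.8%, 30.8% and 63.6%.

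The 3p reads tell the 2 mir-196a loci apart. A share of them depends on the output of each locus and on its arm usage. Because nearly all 5p reads match both loci, these 2 cannot be told apart. mir-196a-2 gave 42 of 42 at 2 dpf (91.6 to 100%). At 3, 4 and 5 dpf it gave 98.8, 85.4 and 82.8%. In female and male red muscle it gave 61.1% (51.7 to 69.8%) and 75.9% (68.8 to 81.9%). The stages at 2 and 3 dpf lay above both red muscle libraries with intervals that did not overlap. In testis 5 of 12 reads came from mir-196a-2, too few for a share.

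**Figure D4:**
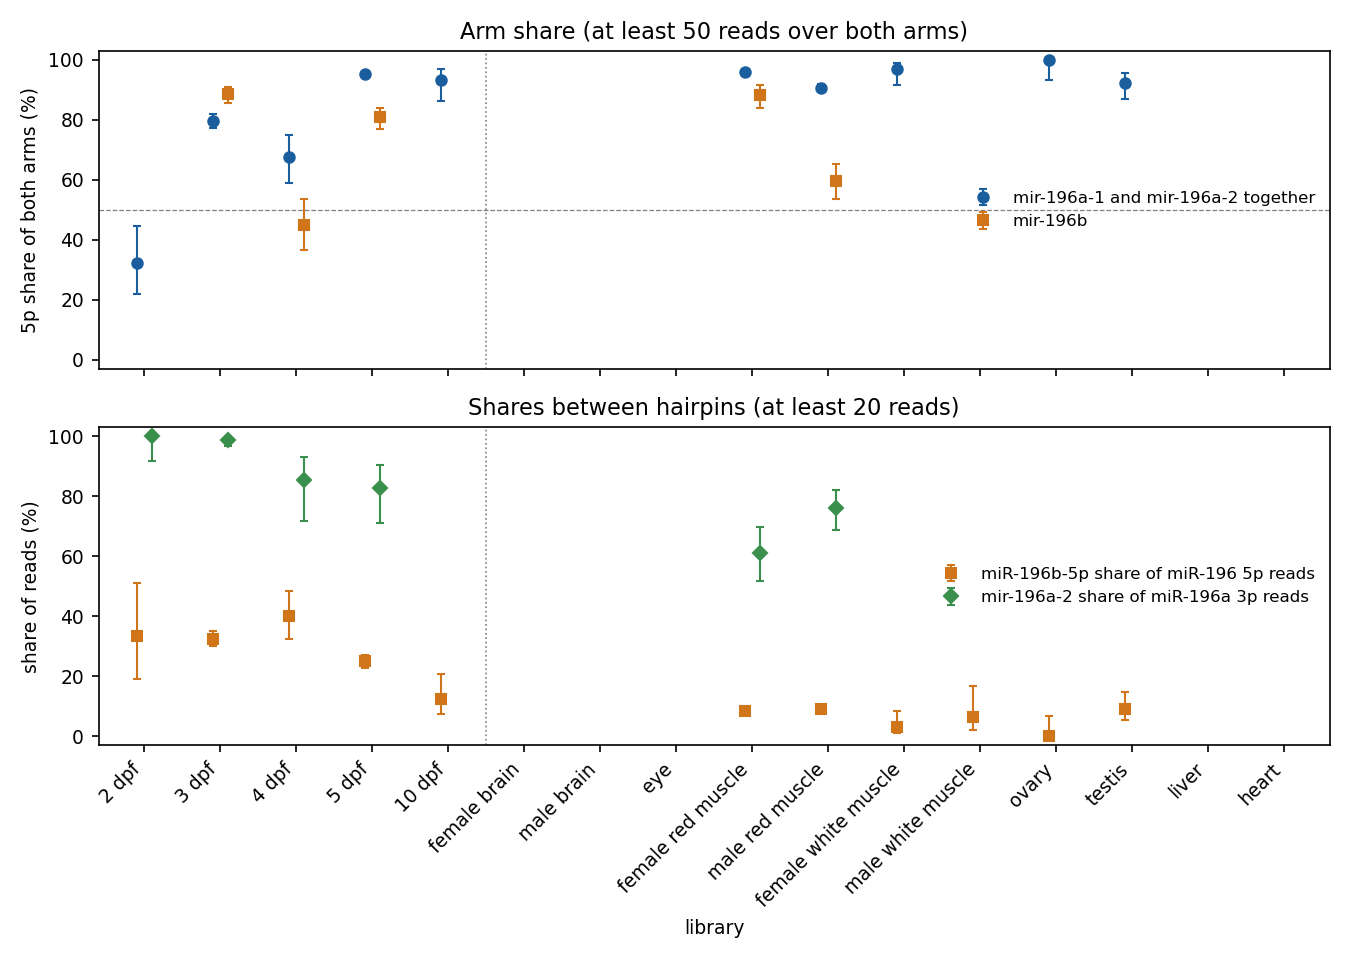
Shares of reads in libraries with enough reads, in percent with Wilson 95% intervals. Above, the 5p share of both arms for the mir-196a hairpins together and for mir-196b. Below, miR-196b-5p as a share of the 5p reads of the family, and mir-196a-2 as a share of the miR-196a 3p reads. The 5p share of mir-196b is 44.9% at 4 dpf and is 59.6% in male red muscle, and the share of miR-196b-5p is 12.5 to 40.1% in the stages and at most 9.04% in adult tissues.

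Among 392 names with enough reads, the pattern of miR-196a-5p over the 16 libraries was most like that of miR-130c-3p (Pearson r = 0.857 on log2(CPM + 1), Spearman rho = 0.827). miR-196b-5p came next (0.838 and 0.86), then miR-16a-5p (0.788), miR-10b-3p-2 (0.77) and miR-27a-5p (0.767). miR-130c-3p had its highest level in female red muscle, at 639.7 CPM, and 4.723 and 6.349 CPM in female and male brain. The libraries differ in depth and share the composition of their totals, and the values are descriptions only. The place of miR-196b-3p was 7 and that of miR-196a-3p-2 was 17.

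The miR-10 family is the other miRNA family known from Hox clusters, where its genes lie among the more anterior Hox genes, and all 9 of its names were examined on the same libraries. In brain 5 of 7 tested were lower than in muscle, with a median log2 fold change of -3.88, where 31.2% of all 362 names were lower. Of the 5, miR-10b-3p, miR-10b-3p-2 and miR-10c-3p had at most 13 reads in a brain library. They met the read minimum only through muscle, which in part set their direction. The count and median are therefore descriptions and are not read against the 31.2%. Also among the 5 lower names, miR-10b-5p had -4.84 (edgeR adjusted p = 0.00333), whereas miR-10a-5p was not lower (0.31, edgeR adjusted p = 0.824). Between red and white muscle 0 of 7 passed, where 24 of all 362 names did in either direction. There miR-10b-5p had 0.43 (edgeR adjusted p = 0.833). Over the stages 5 of 9 fell, where 7.69% of all 390 names did. Of these 5, miR-10a-5p had a slope of -3.21 (edgeR adjusted p = 0.00289) and miR-10b-5p of -2.93 (edgeR adjusted p = 0.0387). With libraries scaled by their totals alone, none of the slopes passed. Head against trunk organs 0 of 7 passed, where 1.33% of all 375 names were lower in the head organs. Female against male 0 of 7 passed, where 0.0% of all 362 names did. In stages against adults 2 of 9 passed in either direction, where 21.2% of all 449 names did. Those 2, miR-10d-3p and miR-10d-5p, were higher in the stages. No adult library had more than 2 reads of miR-10d-3p. It met the read minimum only through the stages, which in part set its direction. Whether the families differ in any of these comparisons was not tested.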

How the data were processed

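The 16 libraries of adult tissues and stages were sequenced by the authors on the Illumina GAIIx, and the paper names the oreNil2 genome. The authors deposited a raw count for each arm of each locus, where a read with several matching loci adds 1 to all of them. A second deposited column holds estimated counts, which split such a read among those loci. The submitters' processing notes name DESeq, with no version. The counting tool is not given in the sources used here.

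Divided counts were summed per mature name, and 2 lines with no name and 0 reads were left out. Levels are per 1000000 of the divided total (833147 to 11517367, median 2848730). Exact Poisson and Wilson 95% intervals were computed with scipy 1.17.1 and statsmodels 0.14.6. Arm shares needed 50 reads and other shares 20.

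Tests ran on all names in R 4.3.3 with edgeR 4.0.16 (TMM, glmQLFit, glmQLFTest; limma 3.58.1) on the divided counts rounded to whole numbers, for names with at least 10 reads in 2 libraries of the fit. Benjamini-Hochberg adjustment ran over all tested names, with an adjusted p under 0.05 as the threshold for passing. Brain, muscle and sex comparisons used 6 libraries, the slope 5, head against trunk organs 11, and stages against adults 16, where organs and stages stand as replicates. The code was tested on simulated data. Alternatives were library totals only, RLE size factors in place of TMM, DESeq2 1.42.0, no filter, raw counts per entry, a replicate block and leaving out each library. The replicates of brain, red muscle and white muscle were 1 female and 1 male library each, so their spread also holds the difference between the sexes. Nothing says that the libraries were made in one batch. The p-values therefore speak of the spread among these libraries only, which may in part be technical. Every miR-196 name, every miR-10 name by counts with up to 4 by value, the 5 names most like miR-196a-5p and the marker lists were given. The members and lists were chosen with earlier results of these data known.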

Additional observations from a re-analysis of the deposited data

Results flagged for a closer look

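miR-196a-5p was at 55.21 CPM in ovary and 107.8 CPM in testis, the opposite direction to female over male muscle, where the female library was higher in red and in white muscle. miR-196b-5p likewise had 0 CPM in ovary and 10.7 CPM in testis, while it was higher in the female library of red muscle and had 3 reads in either sex in white. There is 1 library of each gonad, and the female red and white muscle libraries carry the same fish number. The difference between gonads and muscles was not tested.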

How the results depend on the processing

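The lower level of miR-196a-5p in brain passed in all 12 alternatives (log2 fold change -7.57 to -6.35 when single libraries were left out). The higher level in red muscle kept its direction, 2.99 to 4.14, but passed in 8 of 12, and the lower level in head organs, -8.10 to -7.03, in 13 of 16. The slope of miR-196a-5p turned to 0.70 with library totals only and ranged from -0.80 to 0.29 without single stages. Stages against adults turned to 1.24 with library totals only and ranged from -0.53 to 0.56 without single libraries. With library totals only, the median of all names moved to 1.27 in the slope and 1.23 in stages against adults. That scaling also turned the slope of miR-196b-3p (1.19; -0.42 to 0.16 without single stages) and miR-196a-3p in stages against adults (0.34). Female over male, none of which passed, miR-196a-3p-2 turned to -1.004 with no replicate block and to between -0.48 and -0.13 without single libraries, and miR-196a-3p ranged from -0.0931 to 0.946.

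The sex of the libraries, taken as a replicate block, moved the names passing to 214 of brain against muscle (227 without it) and to 21 of red against white (24 without it). Names passing in red against white were 67 by DESeq2, 54 with no filter, 55 with raw counts per entry, and 0 to 52 without single libraries. In the slope 42 passed, against 0 with library totals only, 68 by DESeq2, and 13 to 51 without single stages. In stages against adults 95 passed, and 162 by DESeq2 (65 to 118 without single libraries). In head against trunk organs 72 passed, 124 by DESeq2, 129 with raw counts, and 35 to 86 without single libraries. In brain against muscle 227 passed, 246 by DESeq2, 262 with no filter, 312 with raw counts per entry, and 125 to 227 without single libraries. Calls gained were miR-196b-3p in stages against adults with library totals only (3.48, adjusted p = 0.0368), and in red muscle miR-196b-3p with no filter (adjusted p = 0.0451) and without female brain (0.0337) and miR-196a-3p without female brain (0.038). DESeq2 also called miR-196b-5p and miR-196b-3p in head organs (adjusted p = 0.011 and 0.0283). Of the 5 names most like miR-196a-5p, the alternatives shared 2 or 3. The cause of these changes was not tested. Reads were too few for arm shares of the mir-196a hairpins together in both brains, male white muscle and liver, and heart and eye had none. For mir-196b they were also too few in female white muscle, in testis and at 2 and 10 dpf, and ovary had none.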
